A study of Mus musculus with 10 samples.

Results

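The genes described here encode the nuclear subunits of the 4 electron-transfer complexes of the mitochondrial respiratory chain. They were taken by symbol from the platform annotation: symbols that begin with Nduf, Uqcr, Cox4, Cox5, Cox6, Cox7 or Cox8, together with Sdha, Sdhb, Sdhc and Sdhd, without the Ndufaf assembly factors. No measured value was used to choose them. The rule found 65 of the 18194 genes that had a probe set with a single symbol: 36 counted with complex I, 4 with complex II, 8 with complex III and 17 with complex IV. By their names Ndufa4 and its paralogue Ndufa4l2 are counted with complex I, although NDUFA4 has since been assigned to complex IV, and Cox7a2l, a factor of supercomplex assembly, is counted with complex IV.

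The tissues came from male mice of the outbred ICR stock, sampled at 28 months of age. From 8 months of age they had eaten the purified AIN-93 diet, either alone (control, 9 mice) or with 1 to 2% LB81 yogurt (10 mice), singly caged and free of specific pathogens. For jejunum, ileum, distal colon, liver and spleen, equal amounts of RNA from the mice of a diet were pooled, and each pool was hybridised to 1 Affymetrix mouse genome array, which gave 10 arrays. A pool averages out the differences between mice, so no array has a replicate of its own tissue and diet, and all tissues stem from the same 2 groups of mice.

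Complex I (NADH dehydrogenase) and complex II (succinate dehydrogenase) pass electrons from NADH and from succinate to ubiquinone. Complex III (the cytochrome bc1 complex) passes them on to cytochrome c, and complex IV (cytochrome c oxidase) passes them to oxygen. Complexes I, III and IV pump protons that drive ATP synthase, and complex II also works in the citric acid cycle. Several complex IV subunits are encoded by paralogues, of which one is widespread and the other is known from muscle, brown fat or testis.

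Promoter sequences of 4 members are shown first, because these members carry the contrasts described below: the muscle form Cox7a1, which had the widest range of tissue means among all members, its widespread paralogue Cox7a2, the widespread complex IV subunit Cox6a1, and the complex II anchor Sdhd. Each line gives the 250 bases before the annotated transcription start, 5′ to 3′ on the gene's strand, from RefSeq on GRCm38.p6. Capitals mark matches, on either strand, to CGCNTGCG or CCGGAAG.
Cox7a1, chr7:30183921-30184170 (+ strand): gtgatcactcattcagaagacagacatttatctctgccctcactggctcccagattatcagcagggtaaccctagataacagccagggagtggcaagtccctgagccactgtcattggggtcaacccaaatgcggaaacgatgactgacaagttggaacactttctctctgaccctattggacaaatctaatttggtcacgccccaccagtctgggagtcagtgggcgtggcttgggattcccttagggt
Cox7a2, chr9:79759854-79760103 (- strand): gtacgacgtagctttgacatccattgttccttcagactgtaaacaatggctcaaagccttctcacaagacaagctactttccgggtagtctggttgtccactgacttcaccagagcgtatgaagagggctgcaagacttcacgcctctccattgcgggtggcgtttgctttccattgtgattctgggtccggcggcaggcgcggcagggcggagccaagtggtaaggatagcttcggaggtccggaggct
Cox6a1, chr5:115348959-115349208 (- strand): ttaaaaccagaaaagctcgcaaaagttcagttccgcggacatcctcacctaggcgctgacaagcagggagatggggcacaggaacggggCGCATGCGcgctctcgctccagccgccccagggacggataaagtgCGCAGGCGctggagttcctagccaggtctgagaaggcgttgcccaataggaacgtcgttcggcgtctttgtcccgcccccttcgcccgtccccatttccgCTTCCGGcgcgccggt
Sdhd, chr9:50603850-50604099 (- strand): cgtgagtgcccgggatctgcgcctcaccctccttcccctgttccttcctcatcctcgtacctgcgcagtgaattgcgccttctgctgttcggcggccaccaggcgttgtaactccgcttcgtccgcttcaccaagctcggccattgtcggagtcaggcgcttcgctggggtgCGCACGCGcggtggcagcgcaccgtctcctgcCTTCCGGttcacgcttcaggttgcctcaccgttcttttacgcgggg
These motifs stand for the binding sites of NRF1 and of GABPA, transcription factors known for acting on nuclear genes of the respiratory chain. RefSeq windows of 300 bases, from 250 before to 50 after the start, matched 52 of the 65 members by symbol. CGCNTGCG, the core of the NRF1 site with a free middle base, lay in the window of 14 of the 52 members (26.9%) and of 9.22% of all 27025 genes with a window. Its exact form CGCATGCG, which lies within the first, was found for 4 members (7.69%), Cox6a1, Ndufa8, Uqcr11 and Uqcrc1, and 2.07% of all genes. CCGGAAG was found for 11 members (21.2%) and 9.93% of all genes, and AAGATGGC, a motif of YY1, for 6 members (11.5%) and 3.19% of all genes. The windows printed for Cox7a1 and Cox7a2 hold none of the marked letters. These are matches of letters, and nothing was measured on binding. The NRF1 core was chosen after a longer form had been searched. All shares were set against all genes with a window, and the shares among highly expressed genes alone were not counted.

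Values are log2 expression per probe set. For each gene the probe set with the brightest mean was used, and the median of each array, 5.424 to 5.496, served as a floor below which a value was not treated as a measured level. On this scale 62 members passed the filter of lying above the floor on at least 2 arrays and were tested among 13599 genes: 35 of complex I, 4 of complex II, 8 of complex III and 15 of complex IV. The 3 others, Cox4i2, Cox7b2 and Ndufb4, lay below the floor on every array. The respiratory chain probe sets were bright, with a mean above 10 for 53 of the 62 (85.5%) and for 10.9% of all genes tested. Across probe sets, Spearman's rho was 0.991 to 0.994 between the control and yogurt arrays of a tissue and 0.858 to 0.978 between tissues. All 6 lymphocyte markers on the array were above the floor in spleen, all 6 hepatocyte markers in liver, all 7 smooth muscle markers in each gut segment and all 7 enterocyte markers in jejunum.

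Spleen was the lowest tissue and jejunum the highest for most subunits. In the limma fit of tissue and diet over the 10 arrays, with Benjamini-Hochberg adjustment over all genes, 61 of the 62 members were called for a difference among the 5 tissues at adjusted p under 0.05, a share close to the 95.0% of all genes tested. Ndufa4l2, a paralogue of Ndufa4 known as a target of the hypoxia response, was the exception (adjusted p = 0.41). The tested members include 4 that were not above the floor on all 10 arrays, Cox7a1, Cox6b2, Cox8b and Ndufa4l2. Spleen had the lowest mean for 54 of the 62 members (87.1%), against 29.2% of all genes. The 54 include Cox7a1, Cox8b and Ndufa4l2, which lay below the floor on both spleen arrays. Cox7a1 and Cox8b lay below it in liver too, so their order between these tissues is not one of measured levels. Jejunum had the highest mean for 32 members (51.6%), against 11.4% of all genes. Distal colon was highest for 15 (24.2%, close to the 22.6% of all genes) and liver for 11 (17.7%, against 24.4%). Spleen was highest for 4 (6.45%, against 29.9%) and ileum for none of the 62, against 11.8%. Because these are whole tissues, fewer cells that are rich in mitochondria and less of each RNA per cell cannot be told apart.

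**Figure D1:**
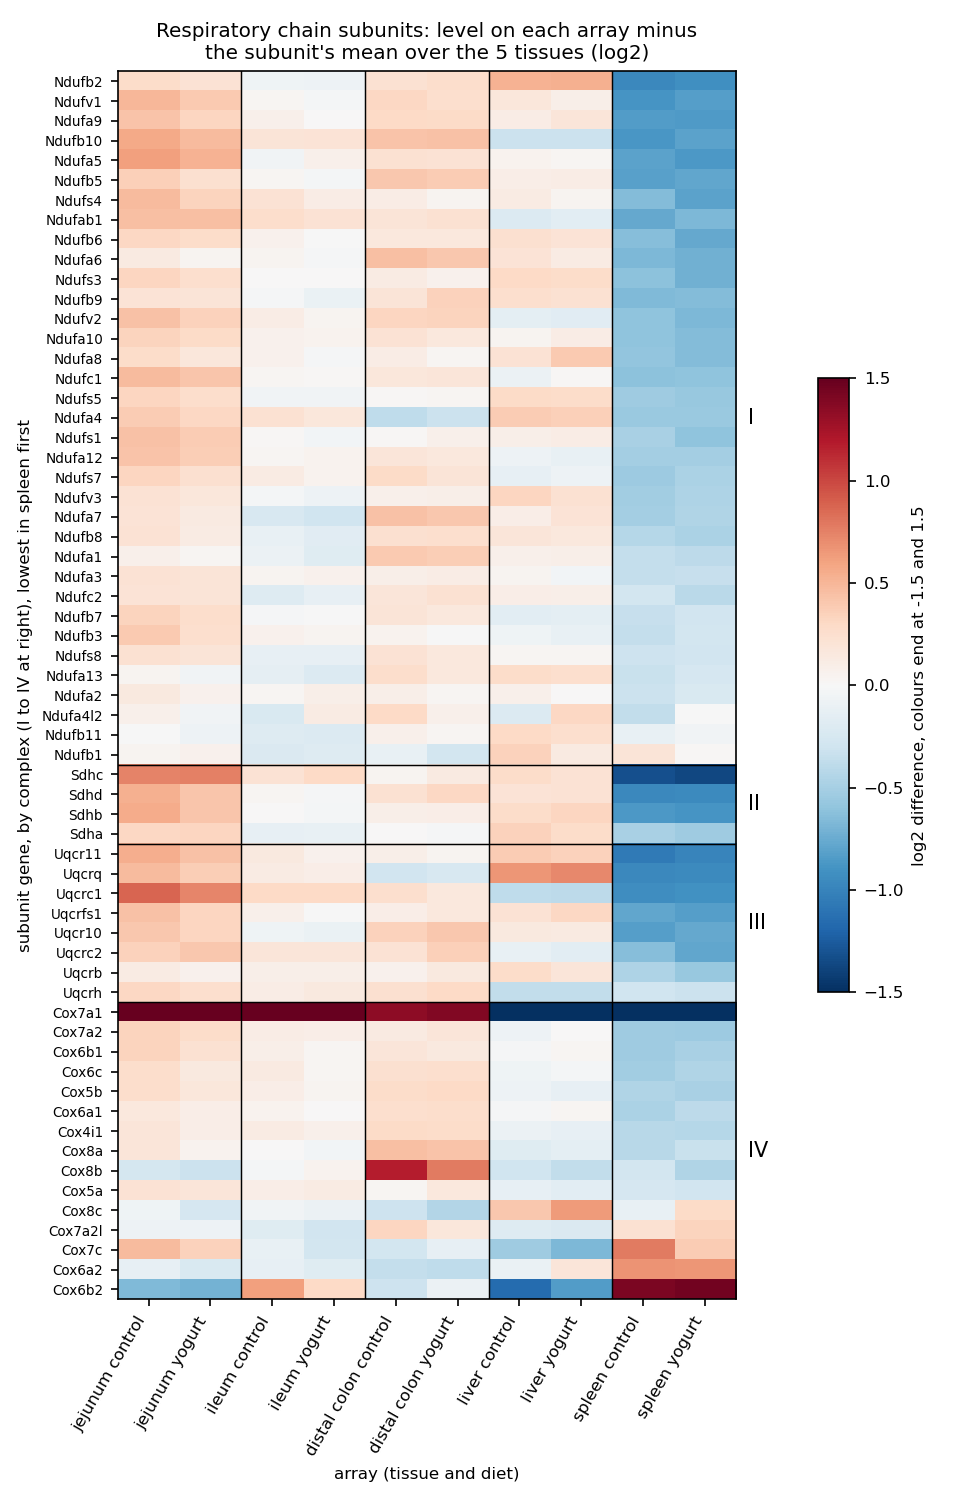
Difference of each array from the member's mean over the 5 tissues (colour, log2, limited to −1.5 to 1.5), with the 62 tested members in rows by complex and the 10 arrays in columns by tissue and diet. The spleen columns are the lowest for 54 members, and the control and yogurt columns of a tissue look alike.

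The size of the tissue differences varied among the complexes. Relative to each member's mean over the tissues, the median member of complex I lay at 0.28 in jejunum, 0.01 in ileum, 0.19 in distal colon, 0.10 in liver and −0.55 in spleen. The 4 subunits of complex II spread further, with medians of 0.48 in jejunum, −0.003 in ileum, 0.09 in distal colon, 0.27 in liver and −0.91 in spleen. Complex III had 0.38 in jejunum, 0.11 in ileum, 0.17 in distal colon, 0.19 in liver and −0.80 in spleen. Complex IV was the flattest, with 0.14 in jejunum, 0.06 in ileum, 0.24 in distal colon, −0.10 in liver and −0.37 in spleen. Over all genes tested the medians lay between −0.10 and 0.08. In each complex spleen was therefore the lowest tissue, while the highest was jejunum for complexes I, II and III and distal colon for complex IV. The differences between complexes were not tested.

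Spleen was set against the mean of the 3 gut segments. Here 54 of the 62 members were lower and 6 higher, against 42.6% and 37.5% of all genes, and the median member lay at −0.67, against −0.03 for all genes. At least 2-fold lower were 15 members, 19.3% being the share of all genes. The 54 include Cox7a1 and Cox8b, both below the floor in spleen, and the 15 include Cox7a1. Among the 1489 genes with a mean above 10, the brightness of most members, 44.9% were lower and 42.2% higher. A list of core subunits held the main redox subunits of complex I, all of complex II, the Rieske and core proteins of complex III, and Cox4i1, Cox5a and Cox5b. All 16 of them that were on the array were lower, with a median of −0.85. The p-values of this and the other tissue comparisons measure how far a gene's difference between the diets varied from tissue to tissue, not the spread between mice.

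In complex I, 32 of 35 members were lower in spleen and 1 was higher, with a median of −0.71. Ndufv1, the subunit that binds NADH and FMN, lay (control and yogurt array) at 11.57 and 11.48 in jejunum, 11.10 and 11.05 in ileum, 11.39 and 11.32 in distal colon, 11.24 and 11.16 in liver and 10.20 and 10.25 in spleen. Both spleen arrays were below all others, and the spleen difference from the gut was −1.10 (SE 0.042, adjusted p = 4.7e-09). Ndufs1, which holds iron-sulfur clusters of the NADH arm, differed by −0.70 (SE 0.046, adjusted p = 3.3e-07), and Ndufs3, Ndufs7 and Ndufs8 of the arm toward ubiquinone by −0.80, −0.71 and −0.39. Ndufv2, the partner of Ndufv1 in the flavoprotein, differed by −0.91.

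The widest tissue ranges of complex I belonged to accessory subunits. Ndufb2 lay at 11.31 and 11.25 in jejunum, 10.97 and 10.95 in ileum, 11.25 and 11.29 in distal colon, 11.55 and 11.57 in liver and 10.06 and 10.11 in spleen. Both spleen values were below the 8 others, and spleen was 2.12-fold lower than the gut, −1.09 (SE 0.039, adjusted p = 3.6e-09). Ndufb10 was 2.34-fold lower, −1.23, and Ndufa5 2.14-fold lower, −1.10. The narrowest range among the called members was that of Ndufa2, with −0.35 (SE 0.047, adjusted p = 6.6e-05). Ndufb11 and Ndufa4l2 were not called, at −0.02 and −0.23. Ndufb1 was higher by 0.22 (SE 0.079, adjusted p = 0.027), and this call was lost without the spleen control array (0.17) or without the jejunum control (0.195), ileum control (0.195) or distal colon yogurt array (0.207).

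Complex II was lower throughout, 4 of 4 members, with a median of −1.13. Sdhc, which anchors the enzyme in the inner membrane and helps to bind ubiquinone and haem, lay at 10.73 and 10.74 in jejunum, 10.20 and 10.28 in ileum, 10.02 and 10.11 in distal colon, 10.25 and 10.19 in liver and 8.65 and 8.61 in spleen. The 2 spleen arrays stood apart from the other 8, and spleen was 3.27-fold lower, −1.71 (SE 0.048, adjusted p = 6.1e-10). A second, dimmer Sdhc probe set, whose suffix marks probes shared with other sequences, had the same sign at a smaller size, −0.44.

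Sdhd, the other anchor, was 2.31-fold lower, −1.21 (SE 0.044, adjusted p = 3.8e-09). Its promoter, printed above, holds a match to each of the marked motifs. Sdhb, the iron-sulfur subunit, differed by −1.06 (SE 0.043, adjusted p = 7.4e-09), and Sdha, the flavoprotein that oxidises succinate, by −0.57 (SE 0.036, adjusted p = 2.3e-07). A second Sdha probe set differed by −0.80, more than the second one of Sdhc, so the order of the flavoprotein and this anchor turned with the probe set.

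Complex III was lower for 8 of 8 members, with a median of −0.999. Uqcrc1, a core protein of the matrix side, lay at 12.16 and 12.02 in jejunum, 11.59 and 11.58 in ileum, 11.54 and 11.45 in distal colon, 10.90 and 10.90 in liver and 10.36 and 10.37 in spleen. Spleen was the lowest and liver the second lowest, and spleen differed from the gut by −1.36 (SE 0.043, adjusted p = 1.3e-09), 2.56-fold. Its partner Uqcrc2 differed by −0.99 and the Rieske iron-sulfur protein Uqcrfs1, which takes electrons from ubiquinol, by −0.99.

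Among the small subunits of complex III, Uqcr11 differed by −1.24 (SE 0.043, adjusted p = 2.4e-09) and Uqcrq, which lies near the ubiquinone site, by −1.05. Uqcrb and Uqcrh, the hinge protein that helps cytochrome c to dock, had the narrowest ranges of tissue means, with −0.61 and −0.54. Even the smallest spleen difference of complex III, that of Uqcrh, was thus close to the median of complex IV.

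Complex IV was divided: 10 of its 15 members were lower in spleen and 5 higher, with a median of −0.57. The 10 include Cox7a1 and Cox8b, which lay below the floor on both spleen arrays and passed the filter through gut arrays alone. Cox4i1, the widespread form of the regulatory subunit IV, lay at 13.10 and 13.02 in jejunum, 13.04 and 13.00 in ileum, 13.21 and 13.19 in distal colon, 12.83 and 12.80 in liver and 12.51 and 12.49 in spleen. Its spleen values were the lowest, with −0.59 (SE 0.030, adjusted p = 3.7e-08), and Cox5a and Cox5b, which cap the matrix side, differed by −0.40 and −0.66. The members that were higher in spleen were Cox6b2, Cox6a2, Cox7c, Cox7a2l and Cox8c. Of these Cox7a2l, at 0.30 (SE 0.052, adjusted p = 3.7e-04), was opposite in its second probe set, at −0.14, and was not called with the mean of its probe sets (0.088). Cox8c, a form known from testis, differed by 0.29 (SE 0.11, adjusted p = 0.039), and that call was lost without the spleen yogurt array (0.074) and without any of 4 gut arrays, the jejunum, ileum and distal colon yogurt and ileum control arrays (0.24 to 0.31). Cox7c differed by 0.57 (SE 0.10, adjusted p = 4.8e-04) on a probe set with a mean of only 6.93, and its second probe set, with a mean of 4.88, lay above the floor on 1 array.

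The neighbouring steps of the pathway were lower in spleen as well. Of the list of other electron carriers and ATP synthase, 20 of 20 genes were lower, against 42.6% of all genes, with a median of −0.67. They included Atp5g1, a c-ring subunit of ATP synthase (−1.34), Atp5o, a stalk subunit (−1.32), Etfdh, which feeds electrons from fatty acid oxidation to ubiquinone (−1.18), and the complex III haem protein Cyc1 (−1.07). Of the citric acid cycle list 16 of 17 genes were lower and none higher, with a median of −0.86, led by Suclg2 (−1.80), Ogdh (−1.76), Dlat of pyruvate dehydrogenase (−1.25) and Idh2 (−1.22).

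Cell markers moved with this comparison, and so did the Gapdh measure of RNA quality. The summed level of the lymphocyte markers was 10284 to 10464 in spleen and 294 to 1107 elsewhere, on the antilogged scale. That of the erythroid markers was 9350 to 9355 in spleen, with 4 of 5 above the floor, and 104 to 120 in the gut, with none of 5. Enterocyte markers summed to 145 to 153 in spleen, with none of 7 above the floor, and to 3192 to 41292 in the gut. The log2 ratio of 3′ to 5′ probe sets, which grows with RNA degradation, was 0.05 to 0.23 for Gapdh in the gut and 0.86 to 1.29 in liver and spleen. For actin the spleen arrays lay close to part of the gut, at 1.01 to 1.09 in spleen and 0.66 to 1.01 in the gut. The part of cell composition and of RNA quality in the spleen values was not tested.

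**Figure D2:**
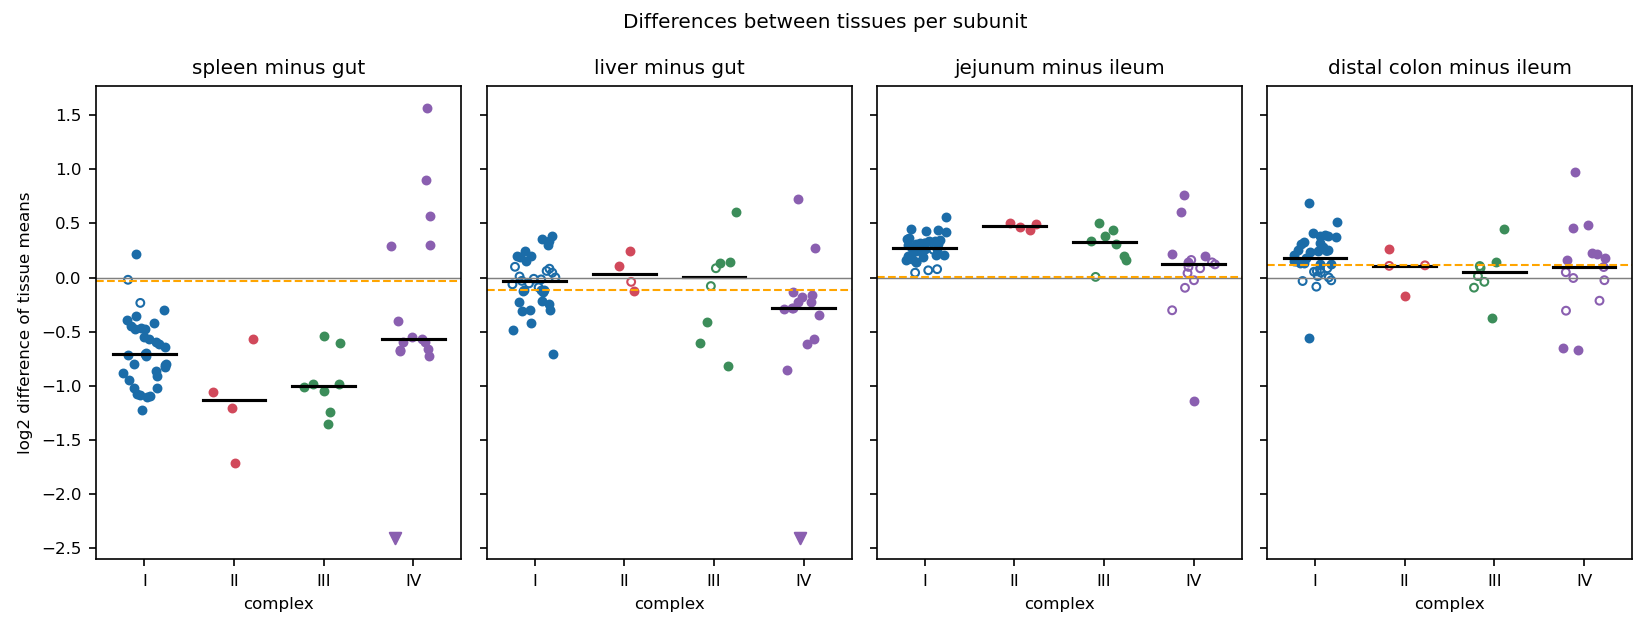
Tissue differences of each tested member (points, log2) by complex for spleen minus gut, liver minus gut, jejunum minus ileum and distal colon minus ileum; filled points were called in the limma fit, black bars are complex medians and the dashed line is the median of all genes. Cox7a1, beyond the axis, is drawn as a triangle; nearly all points lie below 0 for spleen and above 0 for jejunum.

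Liver showed no common direction against the gut. Of the 62 members 16 were higher and 31 lower, against 33.1% and 45.9% of all genes, and the medians were −0.10 for members and −0.11 for all genes. Complex I had 9 higher and 14 lower, complex II 2 and 1, complex III 3 and 3, and complex IV 2 and 13. The 13 of complex IV include Cox7a1, Cox8b and Cox6b2, which lay below the floor on both liver arrays. Among the complex IV members that were lower were Cox4i1 at −0.28 (SE 0.030, adjusted p = 1.2e-05), Cox5a at −0.28, Cox5b at −0.29 and Cox8a at −0.35, while Cox8c and Cox6a2 were higher, at 0.72 and 0.27. The call of Cox6a2 was lost without the liver yogurt array (0.105) and without the jejunum or ileum yogurt array (0.247 and 0.258).

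Subunits of the same complex went in different directions in liver. Uqcrc1 was lower, at −0.82 (SE 0.043, adjusted p = 5.2e-08), and Ndufb10 as well, at −0.70 (SE 0.044, adjusted p = 2.0e-07), while Sdha was higher by 0.24 (SE 0.036, adjusted p = 1.5e-04) and Ndufb2 by 0.39, a call that was lost with the mean of its probe sets (0.080). Uqcrq of complex III had its highest level in liver, with 12.19 and 12.08 in jejunum, 11.83 and 11.81 in ileum, 11.43 and 11.47 in distal colon, 12.38 and 12.44 in liver and 10.74 and 10.76 in spleen. The liver difference of 0.60 (SE 0.041, adjusted p = 4.3e-07) came from a probe set whose suffix marks probes shared between transcripts. The brightest of its other probe sets, with a mean of 5.79 and above the floor on 3 arrays, gave −0.97, and the mean of all of them gave 0.017, which was not called.

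Against spleen, in contrast, liver had 54 members higher and 4 lower, where 36.1% and 40.8% of all genes were, with a median of 0.55 against −0.05. Complex II was higher for 4 of 4 members (median 1.17), complex III for 7 of 8 (0.84), complex I for 33 of 35 (0.63) and complex IV for 10 of 15 (0.31). The 10 of complex IV include Cox7a1, which lay below the floor in both tissues. The largest differences were those of Uqcrq (1.65), Sdhc (1.59), Ndufb2 (1.47) and Uqcr11 (1.39), of which Uqcrq was −0.25 without shared probe sets. Those that were lower in liver were Cox6b2 (at least 3.91-fold), Cox7c, Cox6a2 and Cox7a2l.

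Of the neighbouring pathways in liver, 17 of the 20 genes of electron carriers and ATP synthase were lower than in the gut and 3 higher. Of all genes 45.9% were lower and 33.1% higher. Atpif1, the inhibitor of ATP synthase, was at −3.16 (SE 0.050, adjusted p = 9.8e-12), while Etfdh and Etfb of the route from fatty acid oxidation were higher, at 1.41 and 0.91. The citric acid cycle had 6 of 17 genes higher and 7 lower, near these shares, and citrate synthase, Cs, was at −1.94. Hepatocyte markers summed to 69545 to 70244 in liver and 2195 to 15890 in the gut. The actin 3′ to 5′ ratio was 1.82 to 2.01 in liver and 0.66 to 1.09 on the other arrays, and the part of cells and of RNA quality in these values was not tested.

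Along the small intestine the members were higher in jejunum. Against ileum 47 were higher and 1 lower, where 18.6% and 20.0% of all genes were, and the median member was higher by 0.26, against 0.003 for all genes. Among genes with a mean above 10 the shares were 29.5% and 23.1%. Complex I had 31 of 35 higher, complex II 4 of 4, complex III 7 of 8 and complex IV 5 of 15, with medians of 0.27, 0.48, 0.33 and 0.12. The lower member, Cox6b2, lay below the floor in jejunum.

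Ndufa5, an accessory subunit of complex I, lay in jejunum at 11.09 and 11.004 and in ileum at 10.43 and 10.56, a difference of 0.56 (SE 0.061, adjusted p = 1.1e-04). Sdhb lay at 12.22 and 12.07 in jejunum and 11.67 and 11.63 in ileum, with 0.50 (SE 0.052, adjusted p = 8.1e-05), and Uqcrc1 at 12.16 and 12.02 and 11.59 and 11.58, with 0.50 (SE 0.052, adjusted p = 7.9e-05). For all 3 both jejunum arrays lay above both ileum arrays. Sdhc, Sdhd and Sdha were higher by 0.50, 0.46 and 0.44, and Ndufv1 and Ndufs1 by 0.45 and 0.42. In complex IV the widespread subunits Cox4i1, Cox5a and Cox6a1 were not called, at 0.04, 0.09 and 0.10.

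Uqcrq was higher in jejunum by 0.31 on its main probe set and lower, at −2.90, without shared probe sets, so its direction depends on the probe set. The pathway lists had the same direction as the members: 14 of 20 genes of electron carriers and ATP synthase and 13 of 17 of the citric acid cycle were higher in jejunum and none lower. Of all genes 18.6% were higher and 20.0% lower. Dlat differed by 1.15 and Mdh2, malate dehydrogenase, by 0.80. Enterocyte markers summed to 36731 to 41292 in jejunum and 31440 to 32669 in ileum, smooth muscle markers to 8313 to 9330 and 14238 to 15770, and exocrine pancreas markers to 16266 to 42040 and 470 to 540. The log2 ratio of 3′ to 5′ probe sets was 0.97 to 1.00 for actin in jejunum and 0.66 to 0.67 in ileum, and 0.17 to 0.21 and 0.05 to 0.08 for Gapdh. The part of these cells and of RNA quality in the segment differences was not tested.

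Distal colon was set against both small intestinal segments. Against ileum it was higher for 33 and lower for 5, against 37.9% and 18.8% of all genes and 46.5% and 21.6% of genes with a mean above 10, and the medians were 0.13 for members and 0.11 for all genes. The members lower in distal colon were Cox7a1, Cox6b2, Ndufa4, Uqcrq and Sdhc, and 3 members were lower without the ileum control array. The call of Sdhc was lost without that array (−0.21), the ileum yogurt array (−0.135) or the distal colon control array (−0.125). Ndufa4 lay at 12.51 and 12.43 in jejunum, 12.36 and 12.30 in ileum, 11.75 and 11.80 in distal colon, 12.51 and 12.49 in liver and 11.58 and 11.58 in spleen. Both distal colon arrays were lower than those of jejunum and ileum, with −0.55 (SE 0.044, adjusted p = 7.0e-06) against ileum, while 23 members counted with complex I were higher.

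Against jejunum 10 members were higher in distal colon and 26 lower, where 39.6% and 22.6% of all genes were, with medians of −0.11 for members and 0.10 for all genes. Complex II was lower for 4 of 4 members, led by Sdhc at −0.67 (SE 0.059, adjusted p = 1.0e-05), and complex III for 4 of 8, with Uqcrc1 at −0.59 and Uqcr11 at −0.42. Complex IV instead had 6 higher, among them Cox8a at 0.32 (SE 0.054, adjusted p = 6.3e-04) and Cox4i1 at 0.14, and 4 lower. The 6 include Cox8b, which lay below the floor in jejunum. The call of Cox4i1 was lost without the jejunum yogurt array (0.117), and that of Sdhd without the jejunum or distal colon control array (−0.133 and −0.139). These counts depended on the jejunum arrays: 17 members were lower without the control array and 6 higher without the yogurt array. Smooth muscle markers summed to 21619 to 25370 in distal colon and enterocyte markers to 3192 to 4287. The 3′ to 5′ ratios there were 0.93 to 1.01 for actin and 0.13 to 0.23 for Gapdh, both above those of ileum, and the part of cells and RNA quality in these differences was not tested.

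The steepest tissue difference of all members was that of a complex IV paralogue. Cox7a1, the form known from heart, skeletal muscle and brown fat, lay at 10.58 and 10.34 in jejunum, 9.77 and 9.62 in ileum, 9.00 and 9.05 in distal colon, 5.05 and 5.33 in liver and 4.06 and 3.78 in spleen. All 6 gut arrays lay far above the floor, and all 4 arrays of liver and spleen lay below the floor. Taking the floor as the level there, Cox7a1 was at least 18.9-fold lower in spleen and at least 19.6-fold lower in liver than in the gut. These are bounds given without a test, since the gene passed the filter through its gut arrays alone.

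Within the gut Cox7a1 fell from jejunum over ileum to distal colon. It was higher in jejunum than ileum by 0.77 (SE 0.13, adjusted p = 0.0016) and lower in distal colon than ileum, at −0.67 (SE 0.13, adjusted p = 0.0019). Within the gut this order was opposite to that of the smooth muscle markers, whose sum was lowest in jejunum and highest in distal colon. Across tissues both were higher in the gut: the sum was 8313 to 25370 there, 737 to 836 in liver and 2754 to 2798 in spleen. The part of smooth muscle in the level of Cox7a1 was not tested. Of the 11 striated muscle markers, Myh1, Myh2, Myh6, Myh7 and Tnnt3 lay below the floor on every array, and so did Ucp1, the defining gene of brown fat. Cidea, Elovl3 and Dio2 of the brown fat list lay below it on all gut arrays. Other markers of these lists were above the floor in the gut: Acta1 at 6.52 to 7.47 and Ckm at 6.45 to 7.57 on its 6 arrays, Tnni2 on all 6, Actc1 on 5, Mylpf on 4, and Kcnk3 and Ppargc1a of the brown fat list on all 6. Summed striated muscle markers lay at 499 to 511 in jejunum, 610 to 633 in ileum, 687 to 814 in distal colon, 339 to 370 in liver and 437 to 455 in spleen, so within the gut their order too was opposite to that of Cox7a1, and their part in its level was not tested. Cox7a2, the widespread paralogue, ranged from 12.20 to 13.08 over the 10 arrays, and spleen was lower than the gut, at −0.73 (SE 0.036, adjusted p = 3.6e-08).

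Cox6b2, a form known from testis, lay at 5.32 and 5.26 in jejunum, 6.59 and 6.27 in ileum, 5.67 and 5.89 in distal colon, 4.82 and 5.14 in liver and 7.38 and 7.42 in spleen. Spleen was the highest tissue, at least 2.84-fold above the gut mean, ileum followed, and jejunum and liver lay below the floor. Between ileum and jejunum the difference was at least 1.94-fold, and the distal colon difference from ileum, −0.65 (SE 0.15, adjusted p = 0.0047), was not called without the ileum control array (−0.43). Germ cell markers other than Prm1 lay below the floor in spleen. Its widespread paralogue Cox6b1 was lower in spleen than in the gut, at −0.68 (SE 0.039, adjusted p = 1.2e-07).

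Cox8b, the form known from muscle and brown fat, was above the floor on both arrays in ileum and distal colon, where it lay at 5.53 and 5.61 and 6.74 and 6.35. It was higher in distal colon by 0.97 (SE 0.13, adjusted p = 1.8e-04) against ileum and at least 2.09-fold against jejunum. The widespread Cox8a was also highest in distal colon, with 0.46 (SE 0.054, adjusted p = 7.8e-05) against ileum. Cox6a2, the form known from heart and skeletal muscle, lay between 5.999 and 7.05 on all arrays and was higher in spleen than in the gut by 0.90 (SE 0.095, adjusted p = 1.1e-05), while its paralogue Cox6a1, whose printed promoter holds 3 marked matches, was lower, at −0.57 (SE 0.035, adjusted p = 1.6e-07). In spleen Cox6a2 and Cox6b2 were therefore higher and Cox6a1 and Cox6b1 lower than in the gut.

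**Figure D3:**
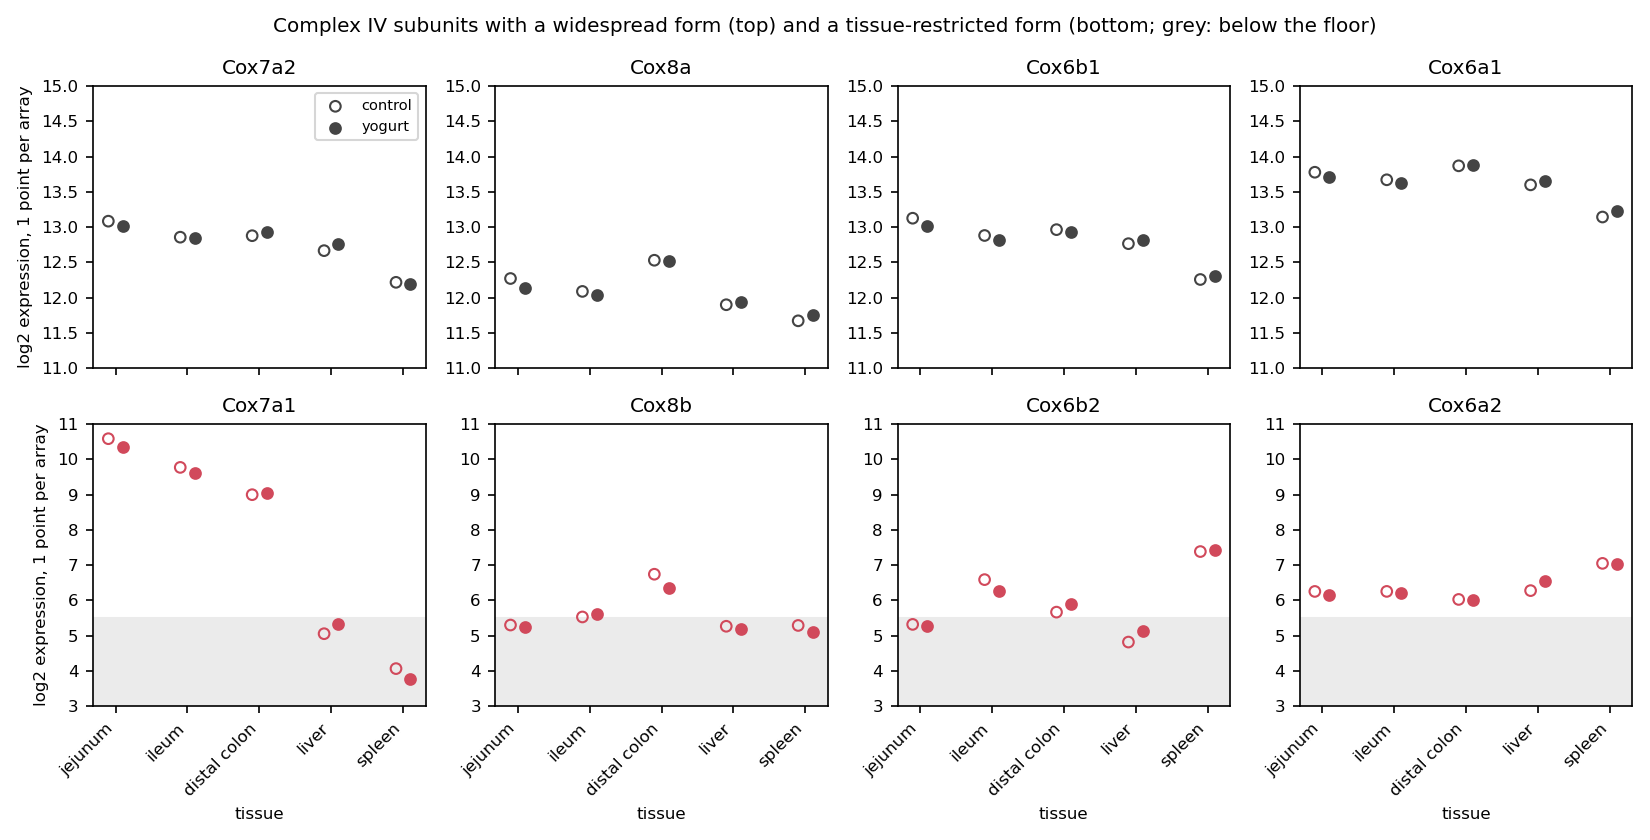
Log2 expression on each array (open, control; filled, yogurt) by tissue for 4 complex IV subunits, with the widespread form in the top row and the tissue-restricted form below; grey marks values below the floor. Cox7a1 falls from 10.58 in jejunum to below the floor in liver and spleen, and the scales of different panels are not comparable as levels.

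For the diet, each tissue has 1 array per group, so the log2 ratio of yogurt over control describes a pair of pools and has no replicate check and no p-value. Any value under the floor was set to the floor before taking the ratio. In jejunum 54 of the 59 measured members were lower in the yogurt pool and 5 higher, where 53.5% of all measured genes were lower, and the median was −0.07 for members, or 95.0% of the control level, and −0.01 for all genes. Complex I had 33 of 34 lower, complex II 2 of 4, complex III 7 of 8 and complex IV 12 of 13. After centring on the median of all genes, 52 were lower and 7 higher.

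The jejunum ratios were small in size. Cox7a1 had the lowest, −0.24, followed by Cox8c at −0.19 and Sdhb at −0.15, and the highest were those of Uqcrc2 at 0.07, Ndufb1 at 0.02 and Sdhc at 0.01. In the same pair of pools 19 of 20 genes of electron carriers and ATP synthase were lower (median −0.08), as were 15 of 17 of the citric acid cycle (−0.06). All 7 enterocyte markers were lower too (−0.18), whereas all 7 smooth muscle markers (0.16) and all 5 exocrine pancreas markers (1.35) were higher. The summed pancreas level was 16266 in the control and 42040 in the yogurt pool, and its part in the subunit ratios was not tested.

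In ileum 45 of 62 members were lower and 17 higher, where 62.1% of all genes were lower, and the medians were both −0.04. Centred on all genes, 33 were lower and 29 higher. Cox6b2 had the lowest ratio, −0.32, with Cox7c at −0.16 and Cox7a1 at −0.15, and Ndufa5 the highest, 0.13, with Cox8b and Sdhc at 0.08 and 0.08. White adipocyte markers summed to 1834 in the control and 3664 in the yogurt pool of ileum, and their part was not tested.

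In distal colon 32 of 62 members were lower and 30 higher, where 54.6% of all genes were lower, with a median of −0.01. Cox8b, at 6.74 and 6.35 in the control and yogurt pool, had the lowest ratio, −0.39. Ndufa4l2, below the floor in the yogurt pool, came to −0.21, and among members above the floor in both pools Cox8b was followed by Ndufb1 at −0.17 and Cox7a2l at −0.15. Cox6b2 had the highest, 0.22, followed by Cox7c at 0.16 and Ndufb9 at 0.15. Both extremes were thus dim, tissue-restricted forms. Smooth muscle markers summed to 25370 in the control and 21619 in the yogurt pool of distal colon and white adipocyte markers to 1671 and 3850, and their part was not tested.

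In liver 33 of 59 members were lower and 26 higher, where 57.8% of all genes were lower, and after centring 21 were lower and 38 higher. Cox6a2 had the highest ratio there, 0.29, followed by Ndufa4l2, below the floor in the control pool, at 0.28, Cox8c at 0.24 and Ndufa8 at 0.18, and Ndufb1, Cox7c and Ndufv3 the lowest, −0.21, −0.15 and −0.10. Liver therefore had no direction of the members that held under both scalings.

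In spleen 30 of 59 members were lower and 29 higher, where 61.5% of all genes were lower. The median member lay at −0.002 and that of all genes at −0.05, so that after centring 46 members were higher and 13 lower, and after quantile normalization 39 and 19. Cox8c had the highest ratio, 0.40, with Cox7a2l and Ndufab1 at 0.11 and 0.10, and Cox7c the lowest, −0.39, with Ndufb1 and Ndufs4 at −0.18 and −0.15.

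No member reached a ratio of 1.5-fold in either direction in any of the 5 tissues, and such ratios were rare among all measured genes. They were found for 108 of 12272 genes in jejunum, 62 of 12295 in ileum and 128 of 12362 in distal colon. In liver 102 of 12161 genes reached 1.5-fold and in spleen 205 of 11875. A ratio of 1.2-fold was reached by 6 member values. Cox6b2 was that much lower in ileum (5.98% of all genes there) and Cox8b in distal colon (4.27%), and Cox6a2 and Ndufa4l2 were higher in liver (4.09%), where Ndufa4l2 lay below the floor in the control pool. In spleen Cox7c was lower (12.7%) and Cox8c higher (5.82%). Each of these members has a mean level below 10, which 53 members exceed.

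**Figure D4:**
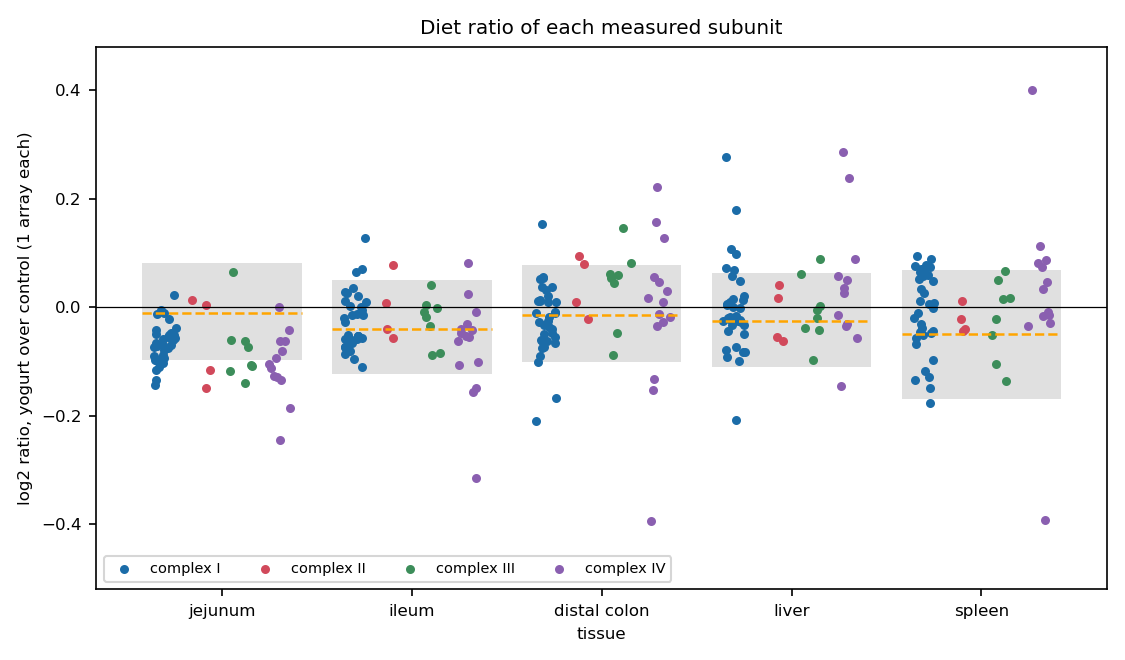
Log2 ratio of yogurt over control for each measured member (points, coloured by complex) in each tissue, with the interquartile band (grey box) and median (dashed) of all measured genes. The jejunum points lie mostly below 0 (54 of 59), and no point reaches 1.5-fold.

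A shift common to the tissues was tested as the diet term of the limma fit. None of the 62 members was called after Benjamini-Hochberg adjustment, 2 had an unadjusted p under 0.05, and 0.0882% of all genes were called. The p-values of this term rest on how far the ratio varied over tissues that share their mice, and are no substitute for replicate pools.

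Ndufs4, an accessory subunit of complex I whose loss is known to cause Leigh-like disease in mice, had the smallest p of the members. Its ratios were −0.13 in jejunum, −0.11 in ileum, −0.07 in distal colon, −0.09 in liver and −0.15 in spleen, all below 0, and its diet term was −0.11 (SE 0.033, adjusted p = 0.32) in the limma fit. Ndufa6 and Ndufb6 followed, with −0.06 (SE 0.026, adjusted p = 0.45) and −0.06 (SE 0.030, adjusted p = 0.52). Together with Cox4i1 they were the 4 of 58 members measured in every tissue (6.90%) that were lower in the yogurt pool in all 5, where 11.3% of all genes were, so the share of members was not above that of all genes.

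A second one-symbol probe set that lay above the floor on all 10 arrays was compared for 36 of the tested members. Cox6a2, Cox7c and Uqcrq also have further probe sets, which are not in these counts or in the list that follows. Without shared probe sets the sign of Uqcrq turned in liver against gut, liver against spleen and jejunum against ileum. For the 36, the second probe set had the sign of the first for 35 in spleen against gut, 34 in jejunum against ileum and 33 in liver against spleen. The sign was shared by 29 in liver against gut, 28 in distal colon against ileum and 27 in distal colon against jejunum. Some members called on the first probe set had the other sign on the second, whatever its size. They were Cox7a2l for spleen against gut, Uqcrh for jejunum against ileum, and Cox6c and Cox8c for liver against spleen. For liver against gut they were Ndufa10, Ndufs4, Ndufv1 and Uqcrb. For distal colon they were Cox6c and Ndufs7 against ileum, and Ndufs4 against jejunum. Some second values lay near 0, such as 0.006 for Ndufv1 in liver against gut and −0.014 for Ndufs7 in distal colon against ileum. For the diet ratios the sign was shared by 26 of 36 in jejunum and in liver, 21 in ileum and in distal colon and 20 in spleen. The median distance between the diet ratios of 2 probe sets of a gene was 0.04 in jejunum, where the median of the members was −0.07. In the other tissues this distance was 0.05 to 0.06.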

How the data were processed

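The authors deposited log2 expression values of 45101 probe sets per array, used here as they are. MAS5 and affy are named in the submitters' processing notes without a version, and the summarising and scaling steps are not given in the sources used here. Per the platform annotation 34958 probe sets have 1 symbol, 932 several (not used; 8 members, among them Ndufa11 and Ndufs6, occur only there) and 9211 none. All 65 members matched RefSeq symbols. Genes above an array's 50th percentile (the floor, 5.424 to 5.496) on at least 2 arrays were fitted with limma 3.58.1 (lmFit, eBayes with trend; R 4.3.3) on tissue and diet, with 4 residual degrees of freedom, Benjamini-Hochberg adjustment over 13599 genes and calls at adjusted p under 0.05. The fit was tested on simulated data. Bounds set values below the floor at the floor. Promoters were searched with Python 3.11.15, with an NRF1 core chosen after a longer form had been searched, and the 1.2-fold limit for diet ratios was set after the ratios were seen. The number of arrays limits the precision.

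The members and lists were chosen with earlier results of these data known. Named were core subunits, tissue isoforms, the widest and narrowest tissue ranges of each complex, the 3 highest and lowest diet ratios per tissue, the smallest diet p-values, members with probe sets of opposite sign and up to 4 leading genes of a list; Ndufb11, Cox7c for spleen, and the genes named beside them in short counts were named after their values were seen. Alternatives were other scalings, floors, filters, probe sets, variance priors, call rules, no diet term and each array left out.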

Additional observations from a re-analysis of the deposited data

Results flagged for a closer look

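Over 6 comparisons of 62 members, 372 pairs of values, the control and the yogurt arrays gave a tissue difference of opposite sign in 23. In 20 of these at least 1 of the values lay within 0.1 of 0 on the log2 scale. The other 3, of 2 members, follow; each rests on 1 array per side and the difference between the diets was not tested. Ndufa4l2, a dim gene with arrays on both sides of the floor, lay in liver against the gut at −0.257 on the control arrays and 0.259 on the yogurt arrays. In jejunum against ileum Ndufa4l2 lay at 0.303 on the control arrays and −0.17 on the yogurt arrays. Cox7c lay in distal colon against ileum at −0.162 on the control arrays and 0.153 on the yogurt arrays, on a probe set with a mean of 6.93.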

How the results depend on the processing

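The diet term sets the tissues against each other within each diet pool, and leaving it out is among the alternatives. No fit with a replicate number as a block was made, since the labels give no such numbers and each tissue and diet has 1 array. Of 474 alternative values of 49 results, 446 stayed close to the reported value and 28 moved. For single members in the fits, 5761 of 6054 alternatives kept the call, with its direction, or stayed not called. Of the others 245 lost the call, 41 gained one and in 7 a called value turned. A change of sign in a value that was not called was not counted as a turn. Requiring a 2-fold difference, a stricter rule by construction, left 0 higher and 1 lower in liver against gut, 1 and 15 in spleen against gut, 8 and 2 in liver against spleen, 0 higher in jejunum against ileum, 0 and 0 in distal colon against ileum and 1 and 1 in distal colon against jejunum. Testing genes above the 75th percentile, which leaves 56 members, gave 2 higher in spleen against gut, 1 lower in liver against spleen and 0 lower in jejunum against ileum. Members lower in jejunum than ileum numbered 2 with the mean of probe sets and 2 without s_at or x_at probe sets. The mean of probe sets put complex II in liver at 0.17.

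With each array left out in turn, distal colon had 3 to 6 members lower and 24 to 33 higher than ileum, and 17 to 28 lower and 6 to 10 higher than jejunum. The other counts were 12 to 18 higher and 23 to 31 lower for liver against gut, 4 to 6 and 54 to 54 for spleen against gut, 50 to 54 and 4 to 4 for liver against spleen, and 33 to 49 and 1 to 1 for jejunum against ileum. A call among tissues was made for 61 members and a diet call for 0 in each of these fits. Centring the diet ratios on all genes gave 29 members higher in ileum with a median of −0.0024, 21 lower in liver, and 46 higher and 13 lower in spleen with a median of 0.046. Quantile normalization gave 19 lower in spleen with a median of 0.043.

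Among called values, direction turned for Ndufa10 (0.0019) and Ndufs4 (0.0059) in liver against gut with the mean of probe sets. Uqcrq turned without s_at or x_at probe sets in liver against gut (−0.97), liver against spleen (−0.25) and jejunum against ileum (−2.90), and in the last also with the mean of probe sets (−0.65); the cause was not tested. Cox7a1 in liver against spleen went from 1.27 to −0.053 with values raised to the floor, since all 4 arrays lie below it. Depth has no counterpart here; members near the floor have the least certain differences.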

Other observations

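Genes that assemble, supply or regulate the chain gave the following values in the same limma fit with Benjamini-Hochberg adjustment. Of all genes tested, 42.6% were lower and 37.5% higher in spleen against the gut. The shares were 45.9% and 33.1% in liver against the gut and 20.0% and 18.6% in jejunum against ileum. In spleen against the gut all 15 genes of mitochondrial fatty acid oxidation were lower, with a median of −1.56 against −0.67 for the subunits. Hadh and Hadha, which carry later steps of the cycle, were at −2.34 and −2.27, Cpt2, the carnitine step of the inner membrane, at −2.27 and Echs1 at −2.06. In liver 12 of these 15 were higher than in the gut and 1 lower, with a median of 0.90, where the subunits had no common direction. Of 33 assembly factors 26 were lower in spleen and 5 higher (median −0.52), led by the copper chaperones of complex IV, Sco2 at −1.71 and Sco1 at −1.69. In liver 17 of 33 were higher than in the gut and 6 lower, and in jejunum against ileum 17 were higher and 2 lower, with Sco2 at 1.02.

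The 20 genes of mitochondrial biogenesis had 7 higher and 9 lower in spleen (median −0.07), near the shares of all genes, 37.5% and 42.6%. Among the lower ones the coactivator Ppargc1a lay below the floor on both spleen arrays and above it on the other 8. Ppargc1b was at −1.96 and the nuclear receptor Esrra, partner of these coactivators, at −1.96. Among the 7 higher were the factors whose motifs were searched, Yy1 at 1.01, Nrf1 at 0.76 and Gabpa at 0.38. These factors were named for their motifs, after their values were seen. In jejunum against ileum 14 of the 20 genes were higher and 1 lower, with Ppargc1b at 0.85 and Tfam, the packaging factor of mitochondrial DNA, at 0.52. These lists were chosen with earlier results of these data known.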
